A study of Oryza sativa with 6 samples.

Results

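The β-glucosidases and chitinases of rice leaves were compared between detached N22 leaves kept in darkness with and without 6-benzyl adenine (BA), a synthetic cytokinin. The members were the genes with a symbol or synonym made of BGLU or Cht and a number. Of 43 such genes, 37 had a probe set that listed them alone (27 of 31 BGLU genes and 10 of 12 Cht genes), out of 17905 genes measured in that way. BGLU2, BGLU4, BGLU21, BGLU24, Cht2 and Cht12 had no such probe set and were not analysed here. Each gene was read from its probe set with the highest mean signal over all arrays.

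Nagina 22 (N22) is a drought- and heat-tolerant rice cultivar, and the third leaf of 30-day-old plants was cut and kept in the dark, which starts senescence. Untreated leaves lay in a solution of NaOH and Tween 20, and BA-treated leaves lay in the same solution with BA at 2 mg per ml. RNA was taken after 72 h by the protocol and the methods, although 1 label field states 2 h. Each group had 3 biological replicates of 5 g of leaf, hybridized to 6 Affymetrix rice arrays, and no array of freshly cut leaves was used here. Untreated therefore means senescing in the dark, and a difference between the groups does not tell which of them moved from the state of the attached leaf.

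β-Glucosidases of this plant family remove glucose from small molecules that the cell stores as glucosides. Their substrates include conjugated hormones, the monolignol precursors of lignin, defence compounds and short wall oligosaccharides, and in maize a member of the family frees cytokinin from its glucosides. Chitinases cut chitin, the polymer of fungal walls, and belong to the pathogenesis-related proteins that many plants accumulate after infection and in ageing leaves. In leaf extracts, fewer cells of a type and less RNA per cell cannot be told apart.

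Signals are the deposited intensities on a linear scale that starts at 16, with array medians between 22.5 and 23.3. Log2 changes are BA-treated minus untreated on the log2(signal + 1) scale, which understates the change of dim genes, and every p is from limma over 57258 probe sets. The closest pair of arrays was BA replicates 2 and 3, whose log2 difference had an SD of 0.16 over all probe sets, against 0.416 to 0.615 for the other pairs. On untreated replicate 3 the probe set for 28S ribosomal RNA read 346, against 28.3 to 47.1 on the other 5 arrays. The leaf label was set against 5 leaf markers, whose signals ranged from 582 to 2126 (CAB2R), from 173 to 408 (rca), from 130 to 386 (petC), from 28.7 to 550 (OsrbcS) and from 31.4 to 69.8 (RBCS1). Of 4 seed genes, GLUA1 and WX1 stayed at or below 35.1, while GLUA2 was at 60 to 79.9 and GLB at 120.3 to 167. Of 3 root genes, Lsi1 and Lsi2 stayed at or below 30.6 and HAK1 was at 282 to 461, so markers of other tissues were not all near the array median.

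None of the 37 members passed an adjusted p of 0.05, with a smallest value of 0.076 for BGLU7. Of all 17905 genes by their brightest probe set 52 (0.290%) passed, and of all rice probe sets 91 (0.159%). At the thresholds of the methods, over 1.5-fold with an unadjusted p under 0.05, 5 members passed. BGLU18 and Cht8 were higher with BA, and BGLU7, BGLU6 and Cht4 were lower. That is 2 of 37 members higher, where the same thresholds took 3.18% of all genes, and 3 of 37 lower, where they took 4.74%, so that the members' counts lay near the background. An unadjusted p under 0.05 was reached by 9 members, 4 of them higher and 5 lower. Of all 17905 genes 2552 reached it, 1149 of them higher and 1403 lower. Over all members 12 log2 changes were above 0 and 25 below, with a median of -0.11 against -0.0035 over all genes. Over all genes 8832 were above 0 and 9073 below. The 27 BGLU genes had a median of -0.09 and the 10 Cht genes one of -0.35.

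**Figure D1:**
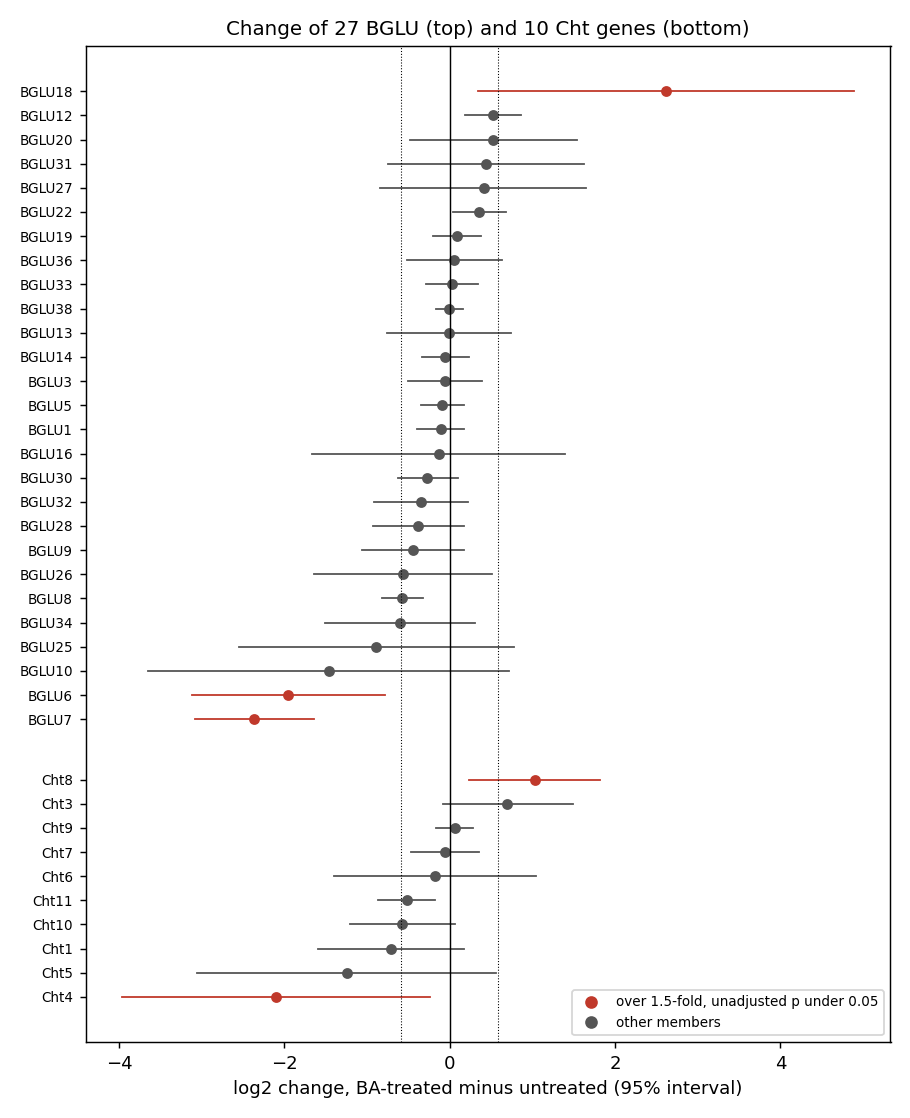
Log2 change (x axis, BA-treated minus untreated) of each member with its 95% interval from limma, BGLU genes above and Cht genes below, each family ordered by the change. Red points are the 5 members past 1.5-fold (dotted lines) with an unadjusted p under 0.05; the widest intervals belong to BGLU18, BGLU10 and Cht4.

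The largest difference on the lower side was that of BGLU7. This enzyme hydrolyses short cellulose fragments and moves glucose between acceptors. Its signal was 328, 390.4 and 299 on the untreated arrays and 103, 49.2 and 53.8 on the BA-treated arrays. All 3 BA-treated values lay well below all 3 untreated values, and BA replicate 1 was the highest of its group. The log2 change was -2.36 (SE 0.29, 95% interval -3.08 to -1.64), with an adjusted p of 0.076 in limma. Without BA replicate 1 it was -2.69 and the adjusted p 0.013; without either of the other BA replicates the adjusted p was 0.36 or 0.41.

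BGLU8 lies directly beside BGLU7 in the reference annotation, with no gene between them. It was singled out after its values were seen, as the neighbour of BGLU7. Its signal was near the array median: 31, 35.8 and 28.8 in untreated leaves and 22.0, 20.2 and 20.8 in BA-treated leaves. The groups did not overlap, and the log2 change was -0.57 (SE 0.10, 95% interval -0.82 to -0.32, limma adjusted p = 0.15), just short of the fold threshold of 0.58. It passed the thresholds with untreated replicate 1 or 3 or BA replicate 1 left out, at -0.59, -0.64 and -0.61, and with array weights, at -0.62. The 1 added to each signal makes the log2 change of such a dim gene smaller, and with 16 added it was -0.37. Whether BGLU8 passes the thresholds with nothing added was not tested.

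BGLU6, whose rice enzyme acts on alkyl glucosides and on short glucose oligomers, was at 153, 46.2 and 145 in untreated leaves. In BA-treated leaves it was at 20.3, 27.9 and 29.0, close to the median of all probe sets. Untreated replicate 2 stood well below the other untreated leaves but still above every BA-treated leaf. This gave a log2 change of -1.95 (SE 0.48, 95% interval -3.12 to -0.78, limma adjusted p = 0.28), and without untreated replicate 2 it was -2.50 with an adjusted p of 0.033. BGLU6, BGLU7 and BGLU8 are all genes of chromosome 3, as their full names Os3bglu6, Os3bglu7 and Os3bglu8 state. The study lists a β-glucosidase locus of that chromosome among senescence-associated genes it read on these same arrays, and the tables used here do not tell which member it is. The direction of that member on these arrays is therefore not independent of the array result of the study. The study also measured a β-glucosidase gene by quantitative PCR, which was not used here.

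BGLU18 had the largest difference of all members. With BGLU14 and BGLU16 it forms the group of rice enzymes known to split the glucosides of monolignols. Its signal was 881, 89.3 and 78.7 in untreated leaves and 1297, 1056 and 1063 in BA-treated leaves. The BA-treated leaves stood close together, whereas the untreated leaves fell into a high replicate 1 and low replicates 2 and 3, with an 11.2-fold span inside the group. The log2 change was 2.62 (SE 0.93, 95% interval 0.34 to 4.89, limma adjusted p = 0.51). Without untreated replicate 1 it was 3.74 with an adjusted p of 0.018. With untreated replicate 3 left out it was 2.01 with an unadjusted p of 0.092, and with untreated replicate 2 left out the p was 0.0956, so that neither passed. It also missed the threshold when any BA replicate was left out, at 0.0707 to 0.0754.

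The other monolignol β-glucosidases were BGLU16 and BGLU14. BGLU16, shown because it is the direct neighbour of BGLU18 and picked after its values were seen, was at 119.7, 23.0 and 26.1 in untreated leaves and at 32.6, 40.4 and 42.2 in BA-treated leaves. Its untreated replicate 1 was again the highest of the 3, so that the groups overlapped, and the log2 change was -0.13 (95% interval -1.66 to 1.40). This sign rested on that array: without untreated replicate 1 the log2 change was 0.62 with an unadjusted p of 0.00823, past the thresholds (limma adjusted p = 0.31). The probe set is of a class that may bind other transcripts as well. A second probe set of BGLU16 gave -0.40. It read 54.0, 19.5 and 23.6 in untreated leaves and 19.4, 25.7 and 20.9 in BA-treated leaves. BGLU14 stayed below the array median on every array, with a log2 change of -0.05 (95% interval -0.33 to 0.24).

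**Figure D2:**
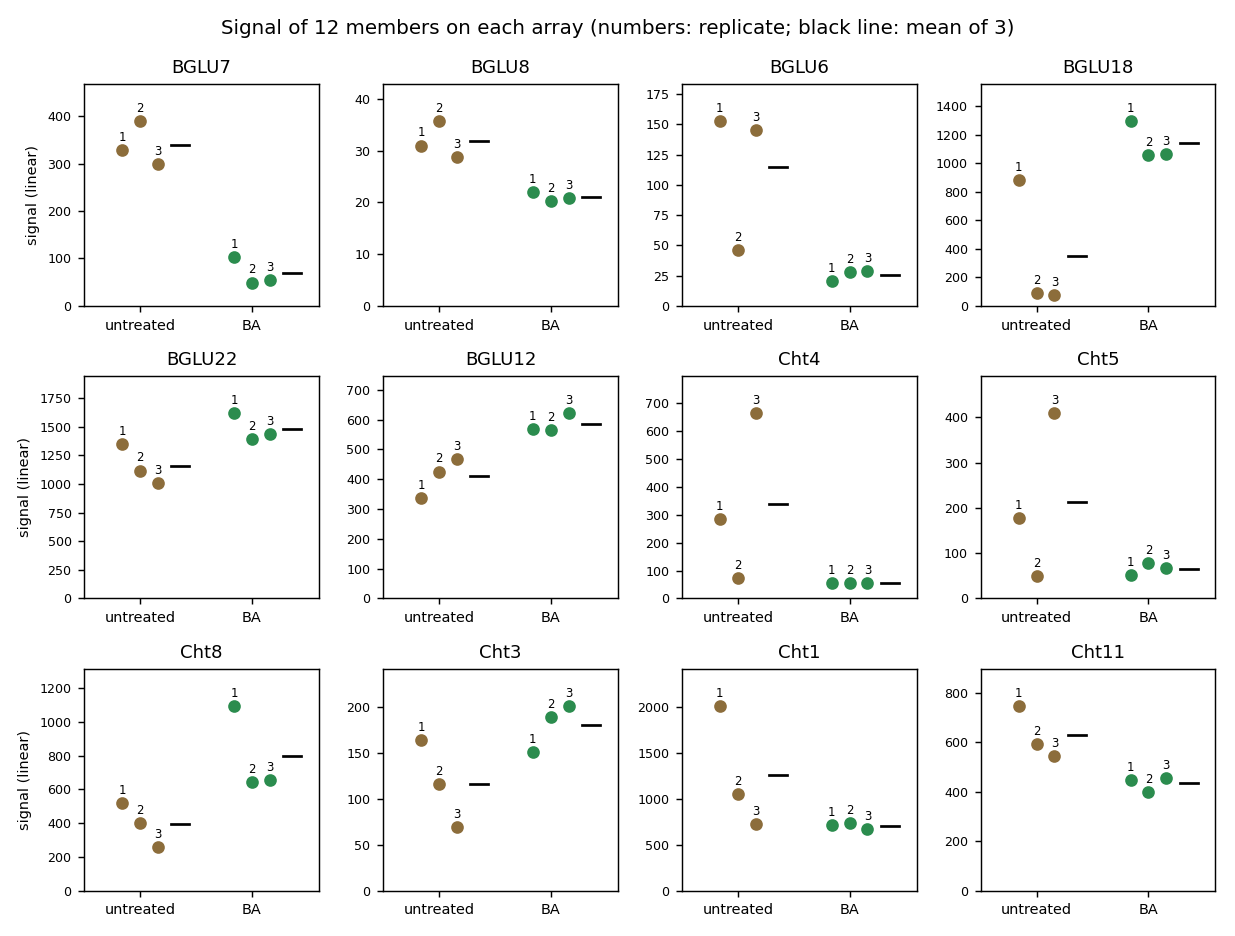
Signal on a linear scale (y axis, separate for each gene) of 12 members on each array, brown for untreated and green for BA-treated leaves, with the replicate number above each point and the group mean as a black line. Among untreated leaves BGLU18 was high on replicate 1 only (881), and all BA-treated leaves were higher still, at 1056 to 1297. Cht4 ranged from 72.9 to 665 among untreated leaves but from 54.6 to 56.3 among BA-treated leaves.

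BGLU22, BGLU12 and BGLU31 were described for their high mean signal. BGLU22 gave 1351, 1117 and 1009 in untreated leaves and 1618, 1392 and 1437 in BA-treated leaves. The groups just missed each other and the log2 change was small, at 0.36 (SE 0.13, 95% interval 0.04 to 0.68, limma adjusted p = 0.52). BGLU12, which frees tuberonic acid, a jasmonate relative, from its glucoside, was at 336, 426 and 467 in untreated leaves and 569, 565 and 622 in BA-treated leaves. All BA-treated values were above all untreated values, with a log2 change of 0.53 (SE 0.14, 95% interval 0.19 to 0.86, limma adjusted p = 0.32), and of 0.63, past the thresholds, without untreated replicate 3. BGLU12 had a second, dim probe set, at 17.4 to 24.1, which gave 0.09. The mean of the probe sets of BGLU12 gave 0.31 (limma unadjusted p = 0.0543). Its near neighbour BGLU13, an enzyme of the same activity, had a log2 change of -0.01 (95% interval -0.76 to 0.74), with 1 gene between the pair in the reference. BGLU31 is a transglucosidase, which passes glucose between phenolic acids and hormones. It was at 307, 277 and 588 in untreated leaves and 967, 372 and 345 in BA-treated leaves, so the 2 groups overlapped and single arrays set both maxima. Its log2 change was 0.44 (95% interval -0.75 to 1.62), and -0.04 without BA replicate 1.

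3 more β-glucosidases had large log2 changes without passing the thresholds. BGLU10 was at 36.4, 26.4 and 298 in untreated leaves and 25.7, 20.5 and 24.5 in BA-treated leaves, so untreated replicate 3, the array with the high 28S signal, set the difference. The log2 change was -1.46 (SE 0.89, limma adjusted p = 0.80), and -0.39 without untreated replicate 3; the part of the 28S signal in it was not tested. The other 2 probe sets of BGLU10 gave -0.06 and -0.54. BGLU25 was at 186, 41.2 and 262 in untreated leaves and at 54.5, 73.9 and 77.8 in BA-treated leaves. Untreated replicate 2 lay below all BA-treated leaves while the other untreated leaves lay above them. For BGLU25 the log2 change was -0.89 (SE 0.68, limma adjusted p = 0.85), with -1.68, past the thresholds, without untreated replicate 2 and -0.36 without untreated replicate 3. BGLU34 was dim, at 22.1, 17.9 and 50.8 in untreated leaves against 17.3, 17.0 and 18.6 in BA-treated leaves. Again untreated replicate 3 was the highest, and the log2 change of -0.60 (SE 0.37, limma adjusted p = 0.80) became -0.17 without it.

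Among the chitinases, Cht4 had the largest difference. Its signal was 284, 72.9 and 665 in untreated leaves and 54.9, 56.3 and 54.6 in BA-treated leaves. The BA-treated leaves were nearly equal (SD 0.901 around 55.2), whereas the untreated leaves spanned 9.12-fold, all of them above the BA-treated leaves. The log2 change was -2.10 (SE 0.76, 95% interval -3.96 to -0.24, limma adjusted p = 0.52). It was -2.96 without untreated replicate 2, with an adjusted p of 0.091, and -1.37 without untreated replicate 3, with an unadjusted p of 0.0622. With untreated replicate 1 left out it was -1.98 with an unadjusted p of 0.0876, and with any BA replicate left out the p was 0.0722 to 0.0792, so that only the removal of untreated replicate 2 kept Cht4 past the thresholds.

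Cht5 lies near Cht4 in the reference, with 2 genes between them. Its signal was 178, 49.4 and 409 in untreated leaves and 51.8, 77.7 and 66.2 in BA-treated leaves. The untreated leaves stood in the same order as for Cht4, with replicate 3 highest and replicate 2 lowest, but for Cht5 replicate 2 fell below every BA-treated leaf. Its log2 change was -1.24 (SE 0.74, 95% interval -3.05 to 0.56, limma adjusted p = 0.79). It was -2.05, past the thresholds, without untreated replicate 2 and -0.54 without untreated replicate 3. For both genes the highest untreated array was the one with the 28S signal of 346; its part in these differences was not tested, and untreated replicate 1, with a 28S signal of 47.1, was also above all BA-treated leaves for both.

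Cht8 was the chitinase that was higher with BA. Its signal was 520.4, 401 and 259 in untreated leaves and 1095, 644 and 657 in BA-treated leaves. The groups did not overlap and BA replicate 1 was the highest array. The log2 change was 1.03 (SE 0.32, 95% interval 0.24 to 1.82, limma adjusted p = 0.43). A second probe set of Cht8, of the class that may bind other transcripts as well, gave 0.90 and did not pass (limma unadjusted p = 0.0546). A dimmer one, at 37 to 121, gave -0.08, so the mean of the 3 was 0.62 and did not pass the thresholds.

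Cht3 and Cht1, neighbours with no gene between them, carry the chitin-binding domain of class I chitinases and pointed in opposite directions. Cht3 was at 164, 116 and 68.8 in untreated leaves and 151, 189 and 201 in BA-treated leaves. The groups overlapped through untreated replicate 1, and the log2 change was 0.70 (SE 0.32, 95% interval -0.08 to 1.49, limma adjusted p = 0.66). It was 0.37 without untreated replicate 3 and 0.99 without untreated replicate 1, where it passed the thresholds with an unadjusted p of 0.0136. Both Cht3 probe sets are of the class that may bind other transcripts as well. Cht1 was at 2015, 1057 and 726 in untreated leaves and at 712, 742 and 670.1 in BA-treated leaves. Untreated replicate 3 lay within the BA-treated values, and the log2 change was -0.71 (SE 0.36, 95% interval -1.59 to 0.17, limma adjusted p = 0.72), or -0.31 without untreated replicate 1. Without untreated replicate 3 it was -1.04 and passed, with an unadjusted p of 0.0144.

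Cht11 was at 747, 593 and 545 in untreated leaves and 449, 398 and 457 in BA-treated leaves. All BA-treated leaves were lower, by a modest log2 change of -0.52 (SE 0.14, 95% interval -0.86 to -0.18, limma adjusted p = 0.33), and of -0.62, past the thresholds, without untreated replicate 3. Cht6 was at 128, 313 and 76.8 in untreated leaves and 109, 130.1 and 149 in BA-treated leaves. Its untreated leaves enclosed the BA-treated ones, and the log2 change of -0.18 (95% interval -1.40 to 1.04) turned to 0.37 without untreated replicate 2.

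The remaining 21 members showed log2 changes between -0.57 and 0.53. Of these, 15 had a mean signal under 50: BGLU1, BGLU3, BGLU5, BGLU8, BGLU14, BGLU16, BGLU19, BGLU27, BGLU28, BGLU30, BGLU33, BGLU36, BGLU38, Cht9 and Cht10. BGLU1, BGLU14, BGLU19, BGLU38 and Cht9 were below the array median on all 6 arrays, where a difference could hardly be seen. BGLU36, the rice counterpart of the Arabidopsis freezing tolerance gene SFR2, had a log2 change of 0.05 (95% interval -0.52 to 0.63). The brighter 6 were BGLU9, BGLU13, BGLU20, BGLU26, BGLU32 and Cht7. Among them BGLU26, which cuts mannose from short chains and was also picked after its values were seen, had a log2 change of -0.56 (95% interval -1.64 to 0.51), with untreated replicate 2 at 92.4 below all BA-treated leaves and the other untreated leaves at 272 and 251 above them. Without untreated replicate 2 it was -1.06 and passed the thresholds.

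The groups did not overlap for 10 members. BGLU12, BGLU18, BGLU22 and Cht8 were higher with BA on every array, 4 of 37 where 7.61% of all genes did so. BGLU6, BGLU7, BGLU8, BGLU10, Cht4 and Cht11 were lower on every array, 6 of 37 where 10.1% of all genes did so.

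The members varied more among untreated than among BA-treated leaves. The SD on the log2 scale was larger in untreated leaves for 28 of 37 members (75.7%), against 62.7% of all genes, with a median of 0.39 in untreated and 0.192 in BA-treated leaves (0.25 and 0.18 over all genes). The highest untreated signal was more than 3 times the lowest for 8 members, namely BGLU6, BGLU10, BGLU16, BGLU18, BGLU25, Cht4, Cht5 and Cht6, which is 21.6% against 7.03% of all genes. Among BA-treated leaves only BGLU27 spanned that much, 2.70% against 1.97%. These shares are descriptions without a test. BA replicates 2 and 3 were the close pair over all probe sets, and their part in the narrow BA-treated spread of the members was not tested. The outlying untreated leaf was not the same for all 8 members: replicate 1 was the high one for BGLU16 and BGLU18, replicate 3 for BGLU10, replicate 2 the low one for BGLU6 and BGLU25 and the high one for Cht6, while Cht4 and Cht5 differed among all 3.

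**Figure D3:**
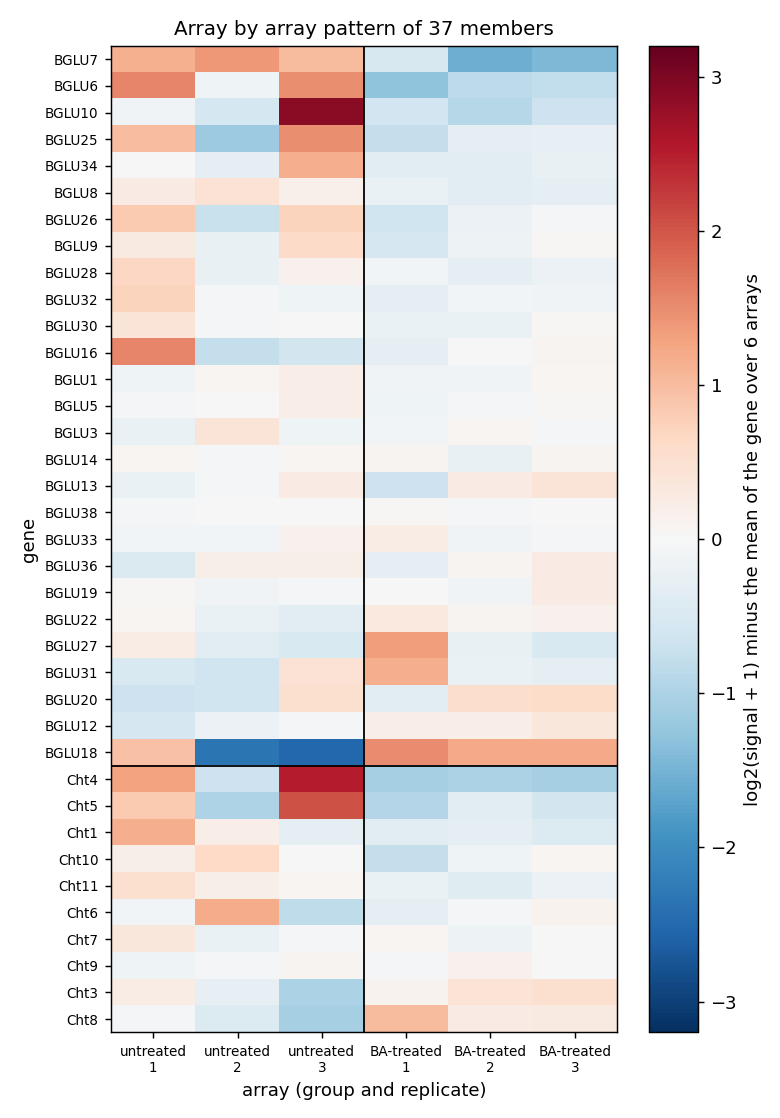
Deviation of each member (rows) on each of the 6 arrays (columns) from its own mean over all arrays, on the log2(signal + 1) scale, with red above and blue below the mean. The strongest colours lie among the untreated arrays, such as BGLU10, Cht4 and Cht5 on replicate 3 and BGLU18 on replicates 2 and 3, while the BA-treated arrays are more alike.

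Each BGLU or Cht gene was set beside only the next BGLU or Cht gene along its chromosome in the reference, where at most 3 other genes lay between them. Of 13 such pairs with both genes measured, 5 had log2 changes of the same sign and 8 of opposite sign, a count that takes in values close to 0 (BGLU13 at -0.01, BGLU33 at 0.03, Cht9 at 0.06 and Cht7 at -0.06) and was not tested. BGLU7 with BGLU8 and Cht4 with Cht5 were both lower, whereas Cht3 with Cht1 (0.70 and -0.71) and BGLU27 with BGLU28 (0.41 and -0.38) differed in sign. BGLU27 stood high only on BA replicate 1, at 92.3. Its other BA-treated leaves were at 30.1 and 25.3, and its untreated leaves at 42.6, 27.4 and 25.4. By their brightest probe sets, BGLU16 and BGLU18 differed in sign with all arrays and were both higher with BA without untreated replicate 1. Close relatives can share probes, which was not tested here.

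**Figure D4:**
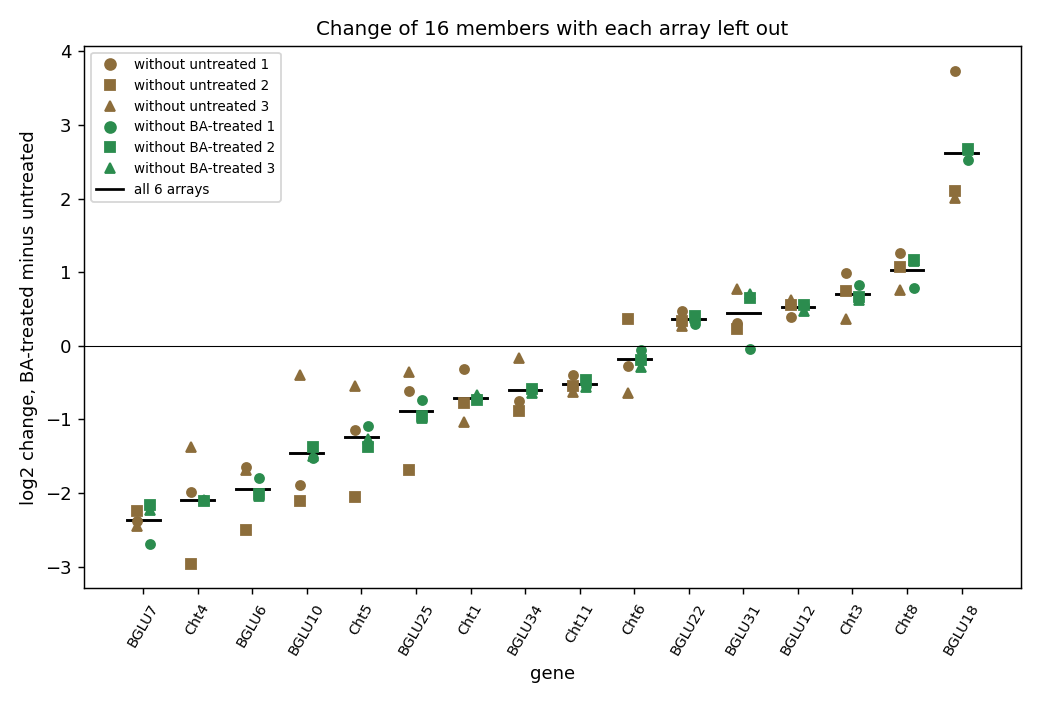
Log2 change (y axis) of 16 members with all 6 arrays (black line) and with each array left out in turn (brown for untreated, green for BA-treated, the shape giving the replicate). BGLU7 stayed between -2.69 and -2.16, whereas Cht4 moved between -2.96 and -1.37 and BGLU18 between 2.01 and 3.74, both mainly with the untreated array left out.

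Genes of related function were read from lists chosen by name, and those given with values were picked after their values were seen. Of 11 endo-1,4-β-glucanases, which cut wall cellulose and similar glucans, 1 passed an adjusted p of 0.05, against 0.290% of all genes by their brightest probe set, and it was lower, and the list median was -0.06 with 5 log2 changes above 0 and 6 below. This gene, GLU2, was at 133, 119.7 and 149 in untreated leaves and 54.4, 62.3 and 50.2 in BA-treated leaves, without overlap, at a log2 change of -1.25 (SE 0.12, limma adjusted p = 0.043). The call was lost whichever array was left out, at adjusted p from 0.058 to 0.32 and log2 changes from -1.34 to -1.17, and with BA replicates 2 and 3 averaged (adjusted p = 0.23). Of 7 genes of chitin perception, none passed, and the median was 0.13. An unadjusted p under 0.05 was reached by 1 of the 7, where 2552 of all 17905 genes reached it. This was LYP4, a chitin-binding receptor protein, with a log2 change of -0.50 and signals from 17.6 to 34.8. The receptor pair itself had log2 changes of 0.54 for CEBiP, which binds chitin fragments, and of 0.23 and 0.13 for the 2 genes named CERK1, the kinase partner. RIXI, a xylanase inhibitor with a chitinase-like fold, was at 46.0, 61.9 and 93.3 in untreated leaves and 22.3, 20.4 and 20.6 in BA-treated leaves. The BA-treated leaves sat near the array median, and the log2 change was -1.56 (SE 0.25, limma adjusted p = 0.12). The pathogenesis-related gene PBZ1 pointed the other way, with 1697, 1304 and 995 in untreated and 2465, 1763 and 1883 in BA-treated leaves, at a log2 change of 0.63 (SE 0.23, limma adjusted p = 0.52).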

How the data were processed

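Total RNA of N22 leaves was labelled with biotin and hybridized to 6 rice arrays. The deposited values are linear intensities, 1 for each probe set on each array, which the authors summarised with PLIER and a variance stabilization. RMA also stands in the submitters' notes; its role and all versions were not given in the sources used here. Deposited intensities were used without further normalization. All 57258 rice probe sets (of 57381, without 123 controls) were fitted as log2(signal + 1) in R 4.3.3 by lmFit and eBayes of limma 3.58.1, and p-values were adjusted by Benjamini-Hochberg over all of them, at a threshold of 0.05. Array number limits the precision.

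Names came from the platform annotation joined by gene identifier to the RefSeq names of rice assembly ASM3414082v1. The members and the lists were chosen with earlier results of these data known. Array values are given for members past the thresholds and, per family, for 3 others with the highest signal and 3 with the largest change; BGLU8, BGLU16 and BGLU26 were added after their values were seen. The lists of β-1,3-glucanases and β-galactosidases matched no gene, and 3 genes whose names collided with other proteins (a glutamine synthetase, an actin and a regulator of salicylic acid signalling) were left out after their names were seen. No sequence was read, since the tables used here hold none.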

Additional observations from a re-analysis of the deposited data

How the results depend on the processing

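Counts were recomputed under 18 other settings, and the log2 changes of 16 members under 17 of them, since the ordinary test has the same log2 change; BGLU34 and Cht3 had 16, as 1 filter removed each. BGLU6 and BGLU7 stayed past 1.5-fold with an unadjusted p under 0.05 in each setting, and 14 of the 16 kept their direction in each. The exceptions were BGLU31, which lay between -0.04 and 0.77 on the log2 scale with single arrays left out, and Cht6, between -0.64 and 0.37. Of members outside the 16, only BGLU8, BGLU16, BGLU20 and BGLU26 were followed for direction. Among these BGLU16 changed sign, to 0.62 without untreated replicate 1. Whether the remaining members kept their sign was not followed. The number of members higher with BA past these thresholds, 2 in the report, was 1 with BA replicates 2 and 3 averaged, 4 with array weights, 1 with all probe sets of a gene averaged and 0 by the ordinary test without shared variance, and 1 to 4 with single arrays left out. The number lower, 3 in the report, was 5 with array weights and 2 to 8 with single arrays left out, 8 being without untreated replicate 2 and 5 without untreated replicate 3. By adjusted p no member passed in the report, and 1 did with array weights, with a variance trend and among probe sets above the median signal, BGLU7 each time, and 0 to 1 with single arrays left out. All probe sets called, 91 in the report, were 0 with those BA replicates averaged, 280 with array weights, 1 by the ordinary test, 56 without probe sets of the cross-hybridizing classes and 0 to 142 with single arrays left out. The causes were not tested.

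Arrays of the 2 groups share replicate numbers, but the labels do not say whether leaves with the same number belong together. Their deviations correlated at 0.422, -0.0133 and 0.423 for numbers 1, 2 and 3, and untreated replicate 2 correlated best with BA replicate 1. With the replicate number as a block 0 probe sets were called, and 2 members were higher and 3 lower past the thresholds, as without it; the adjusted p of GLU2 was 0.12 with the block.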
